A study of Mus musculus with 12 samples.

Results

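The receptors for glutamate, GABA, glycine and serotonin are described here in thalamus of Gbx2 knockout (KO) and wild-type (WT) mouse embryos, and in WT epithalamus and prethalamus. Members were chosen by symbol alone: every probe whose symbol begins with Gria, Grik, Grin, Grid, Grm, Gabr, Gabbr, Glra, Glrb or Htr and continues with a digit or subunit letter, without Htr5b and the Htra proteases. That rule took 126 of the 45281 probes on chip 2. 1 of them belongs to a gene for a scaffold protein and not a receptor, so 125 probes of 63 receptor genes are counted below. Of these, 90 probes of 55 genes could be followed on both chips, among 31448 joined probes used, and 8 genes had probes on chip 2 only.

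Gbx2 encodes a homeodomain transcription factor made by postmitotic neurons of the developing thalamus, and the comparison of KO with WT asks what thalamic neurons express without it. RNA came from microdissected tissue of CD1 embryos at E12.5 and was hybridised to Illumina bead arrays, 12 in all. The KO thalamus and WT thalamus groups have 4 arrays each, with replicates 1 and 2 of each genotype on chip 1 and replicates 3 and 4 on chip 2. WT epithalamus and WT prethalamus have 1 array each, both on chip 1, so nothing measures the spread within either region. The labels call the tissue of all arrays thalamus and name these 2 regions only in the sample descriptions. Replicate 5 of each genotype, on chip 2, is marked in the labels as an excluded outlier and entered no main comparison. Nothing in the labels tells if each array holds RNA of a single embryo or a pool, and p-values therefore measure only the spread between these arrays. Values are log2 bead intensities, background-corrected and normalised within each chip. Intensities of different probes, and of the same probe on different chips, are not set against each other. A probe is called detected on an array where its detection p was under 0.05.

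Fast excitation in the brain runs through the AMPA, kainate and NMDA receptors, which are tetrameric channels opened by glutamate, while metabotropic glutamate receptors signal through G proteins. GABA-A and glycine receptors are pentameric chloride channels that inhibit mature neurons but often depolarise young ones, whose chloride gradient is reversed. In the embryonic thalamus these receptors appear while neurons still migrate and extend axons to the cortex, before most synapses have formed.

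The probes that the main results turn on are shown by their opening 30 bases out of 50, 5′ to 3′, to say exactly which part of each transcript was measured. They were decoded from the sequence codes in the deposited probe annotation, and no base is capitalised because no part of a probe is singled out. They are the probes of the receptors called lower in KO thalamus in either fit and of Glra2.
Grm8 ILMN_2711523: acgttcaaaaacgcaagagaagcttcaagg
Gria3 ILMN_1251634: agtgtaaattgcatgtgtgggcataattac
Gria2 ILMN_1222167: ctgttacgctctaccaccttacccaaagat
Grin2b ILMN_2547237: tttgcaggaaagaaaacgtctcaaaccctc
Glra2 ILMN_2729364: ttgctgtcgctaagccacagtatttatgga

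The Gbx2 probe gave log2 intensities of 13.04 and 12.77 in KO thalamus and 13.73 and 13.30 in WT thalamus on chip 1, and of 13.76 and 14.05 in KO and 15.94 and 15.73 in WT on chip 2. The KO arrays lay below the WT arrays of their chip, by 1.27 on the log2 scale (SE 0.27, limma with Benjamini-Hochberg adjustment, adjusted p = 0.0408), and Gbx2 RNA stayed bright in KO. The sources used here do not place this probe inside or outside the deleted part of the gene, so whether it checks the genotype is not known. Epithalamus and prethalamus read 6.35 and 8.27 on the same probe. The thalamic markers Lhx9 and Slc17a6 were detected on every KO and WT thalamus array of the main comparison. Both were also detected on the epithalamus and prethalamus arrays, so their detection does not single out thalamus. In the caudal thalamus list that holds both, limma called 4 genes lower in KO and 1 higher. Over the arrays of chip 1, 32.8% to 38.6% of the joined probes were detected, and on chip 2 43.5% to 45.4%.

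Most of these receptors were too dim to measure at E12.5 with the probes that carry their symbols. By these probes, 33 of the 63 genes were detected on no array, 6 were detected on some array but too rarely to test, and 24 were tested on both chips or on chip 2 alone. Among the 55 genes followed on both chips, 17 were detected on at least 4 of the 8 KO and WT arrays, against 44.4% of all genes of the joined table. On chip 2, 39 of 125 receptor probes were detected on at least 2 of 4 arrays, against 47.2% of all probes there. Between 16 and 23 of the 90 joined receptor probes were detected on each thalamus array of chip 1 and between 23 and 30 on each array of chip 2.

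Detection varied with family. All 4 AMPA subunits and 4 of 5 kainate subunits were tested on both chips. Of 7 NMDA subunits, Grin2b, the glutamate-binding subunit typical of immature neurons, was the only one tested, while the member probes of Grin1, the obligatory subunit, and of Grin2a, Grin2c, Grin2d and Grin3a were detected on no array. A Grin1 signal that stays under the background does not show that the RNA is absent. Among the metabotropic receptors Grm2, Grm3, Grm4 and Grm6 were also detected nowhere by their member probes. Of the member probes of Grm7, ILMN_2684189 was detected on 3 arrays and the others on none. A further chip 2 probe that RefSeq accessions place on Grm7 carries a clone name and is no member. It read 5.01 and 4.94 in KO, not detected, and 6.18 and 5.85 in WT, detected. Of 18 GABA-A subunits, 8 were tested and 9 were detected on no array, among them Gabra2, Gabra5, Gabra6 and Gabrd. The glycine receptor subunits Glra1, Glra4 and Glrb were not detected, although Glrb encodes the beta subunit that anchors adult glycine receptors at synapses. Serotonin receptors were the least visible: 11 of 13 genes, including Htr1a, Htr1b and Htr2a, were detected on no array, Htr2c on 1 array, and Htr4 alone was tested.

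**Figure D1:**
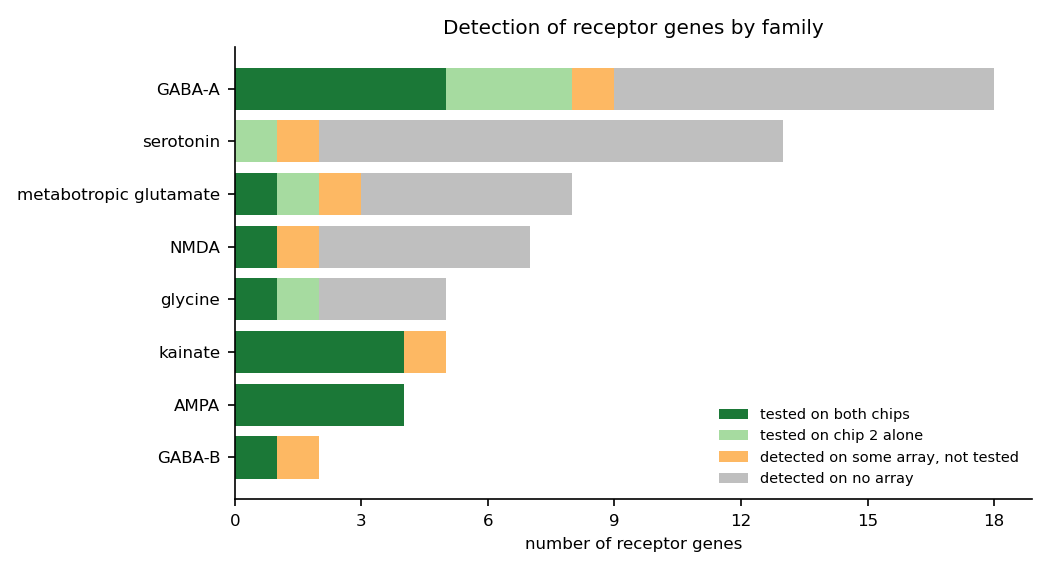
Number of receptor genes (x axis) in each family of at least 2 genes, split by whether a gene was tested on both chips, tested on chip 2 alone, detected on some array without being tested, or detected on no array. The AMPA and kainate families are almost wholly measured, while 11 of 13 serotonin receptor genes and 9 of 18 GABA-A subunit genes were detected nowhere.

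Among the 17 receptor genes tested on both chips, 3 were lower in KO thalamus and 0 were higher. Gria3 and Gria2 fell by 2.24-fold and 1.99-fold, and Grm8 fell too, with only a bound on chip 1, where no KO array detected it. Over all 10396 genes tested, 1.48% were called lower and 1.39% higher (limma, chip as a block, Benjamini-Hochberg adjusted p under 0.05). At an unadjusted p under 0.05, 8 receptor genes were lower and 0 higher, where 10.8% and 10.1% of all genes were. All 8 of these genes, and no other of the 17, had every KO array below every WT array of its chip, a pattern seen in 9.75% of all genes, and none had every KO array above, seen in 10.3%. Of the 8, Glra2, Grm8 and Gria4 were undetected on some KO arrays. Their 4 WT arrays alone met the detection filter, so these counts are descriptions. With detection required on all 8 arrays, 11 receptor genes were tested. Gria2, Gria3 and Grik1 were then called lower, beside 1.89% of all genes, and Grm8 was not tested. Values were negative for 14 of the 17 genes, with a median of −0.41 on the log2 scale, beside −0.02 over all genes tested. In bulk tissue, fewer cells that carry a receptor and less receptor RNA per cell cannot be told apart.

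**Figure D2:**
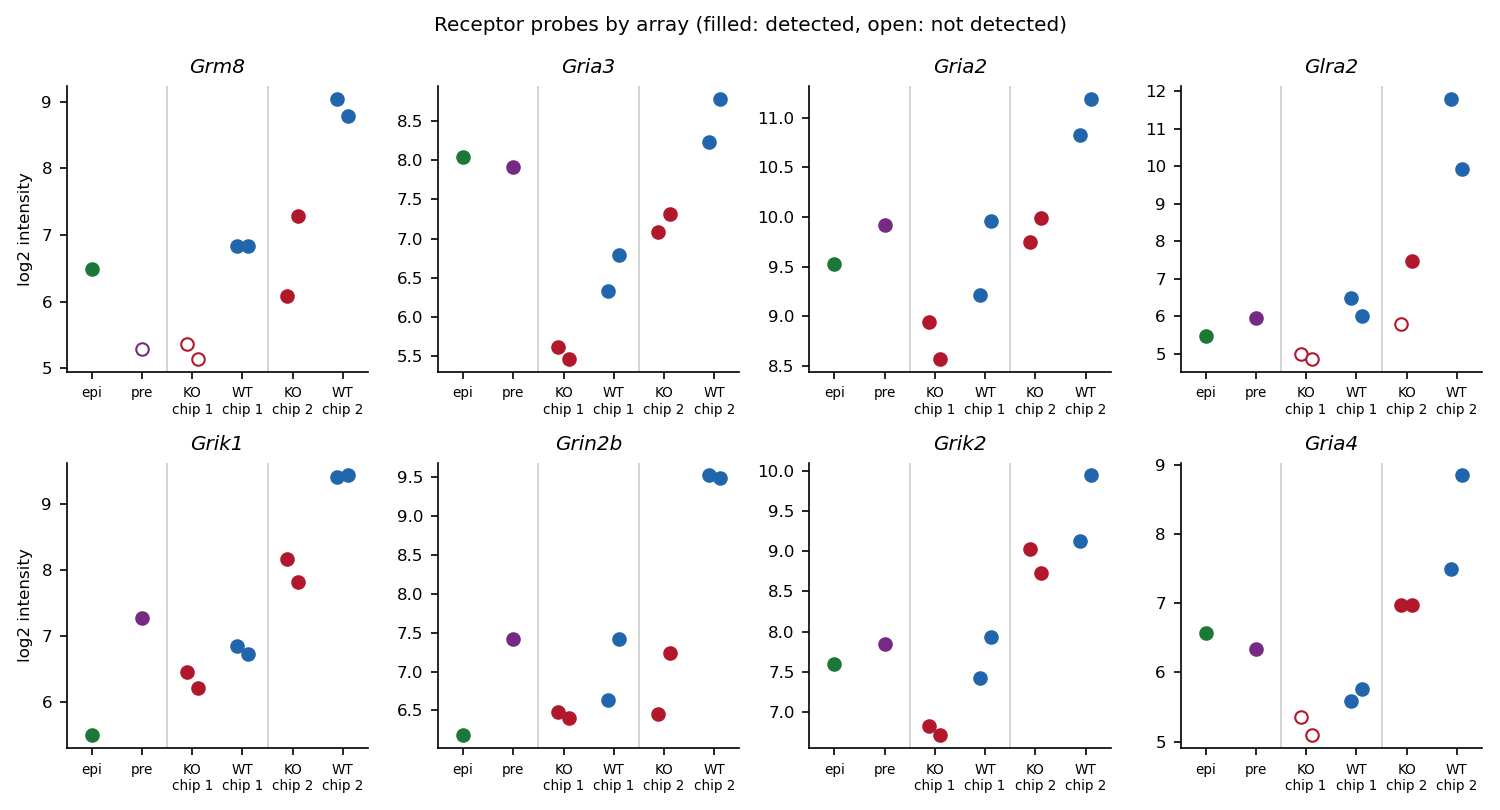
Log2 intensity (y axis, own scale per gene) on each array for the 8 receptor genes with the smallest p, with filled points detected and open points not detected; epi is WT epithalamus, pre is WT prethalamus, and vertical lines part the chips. In all 8 genes both KO arrays lie below both WT arrays of the same chip.

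Of the AMPA receptor subunits, Gria2 carries the edited residue that keeps the channel impermeable to calcium. Its log2 intensity was 8.94 and 8.57 in KO and 9.21 and 9.96 in WT on chip 1, and 9.75 and 9.99 in KO and 10.83 and 11.19 in WT on chip 2. The groups did not overlap on either chip, and the difference was −0.99 (SE 0.21, limma adjusted p = 0.0387). Gria3, whose product pairs with the Gria2 subunit in many neurons, read 5.62 and 5.47 in KO and 6.33 and 6.79 in WT on chip 1. On chip 2 it read 7.08 and 7.31 in KO and 8.23 and 8.78 in WT. All 8 arrays detected it, the genotypes stood apart on both chips, and it fell by 1.16 on the log2 scale (SE 0.19, limma adjusted p = 0.0177). The drops on chip 1 and chip 2 were −1.01 and −1.31 for Gria3 and −0.84 and −1.15 for Gria2.

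Gria4, a subunit of fast AMPA channels, gave 5.35 and 5.09 in KO and 5.58 and 5.76 in WT on chip 1, and 6.97 and 6.98 in KO and 7.50 and 8.85 in WT on chip 2. It was detected on 2 of 4 KO arrays and on 4 of 4 WT arrays, and its difference of −0.82 did not pass (SE 0.29, limma adjusted p = 0.148). Gria1, the AMPA subunit best known from activity-dependent trafficking, was the only tested member of its family with a positive value. It read 8.25 and 8.58 in KO and 6.49 and 8.08 in WT on chip 1, and 8.57 and 9.26 in KO and 9.12 and 8.10 in WT on chip 2. Both KO arrays were above both WT arrays on chip 1 and overlapped them on chip 2, and the difference of 0.72 did not pass (SE 0.38, limma adjusted p = 0.316). The WT arrays of chip 1 themselves differ by more than 1 on the log2 scale for Gria1, the 1 receptor gene for which they do, as they do in 6.69% of all genes tested. Markers of prethalamus and GABAergic neurons (3 of 13 tested) also differ between these arrays, with a mean level of −1.13 in WT replicate 1 and 1.13 in WT replicate 2 relative to their chip's WT mean. Their part in the Gria1 values was not tested.

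The kainate receptor subunits Grik1 and Grik2 both bind glutamate and form channels alone or with Grik4 and Grik5. Grik1 had log2 intensities of 6.46 and 6.21 in KO and 6.85 and 6.72 in WT on chip 1, and of 8.17 and 7.82 in KO and 9.41 and 9.44 in WT on chip 2. For Grik2 the values were 6.83 and 6.71 in KO and 7.42 and 7.93 in WT on chip 1, and 9.02 and 8.73 in KO and 9.13 and 9.94 in WT on chip 2. Neither gene overlapped between genotypes on either chip, yet neither passed after adjustment: Grik1 differed by −0.94 (SE 0.22, limma adjusted p = 0.0548) and Grik2 by −0.78 (SE 0.21, adjusted p = 0.0884). Grik5, a high-affinity subunit that needs a partner, showed 7.09 and 6.98 in KO and 6.83 and 7.10 in WT on chip 1, with 7.83 and 8.57 in KO and 8.96 and 8.97 in WT on chip 2. Its chips gave 0.07 and −0.77, and the joint value of −0.35 did not pass (SE 0.23, limma adjusted p = 0.418). Grik4, also a high-affinity subunit, was detected on 2 arrays of each genotype and differed by −0.11 (SE 0.16). Grik3 was detected on 1 array of chip 2.

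Grin2b is the NMDA receptor subunit that dominates in embryonic brain and gives slow, ifenprodil-sensitive currents. It read 6.48 and 6.40 in KO and 6.64 and 7.42 in WT on chip 1, and 6.46 and 7.24 in KO and 9.52 and 9.49 in WT on chip 2. KO arrays were lower on both chips, by −0.59 (chip 1) and −2.65 (chip 2) on the log2 scale. Over both chips the difference was −1.62 (SE 0.40, limma adjusted p = 0.0656), which did not pass, while on chip 2 alone it did (−2.65, SE 0.34, limma adjusted p = 0.0278), a 6.30-fold drop. That call rests on ILMN_2547237 alone. The other Grin2b probes of chip 2, ILMN_2548201 and ILMN_2617352, were detected on no KO or WT array there. They read 4.67 to 4.94 and 4.82 to 5.14 over both genotypes. A test of the difference between the chips, added after the values were seen, gave an unadjusted p of 0.00189 for Grin2b and a limma adjusted p of 0.688 over all genes. A further probe that RefSeq accessions place on Grin3a, an NMDA subunit that lowers calcium flux, carries a clone name in the deposited annotation and so falls outside the symbol rule. It was detected on all arrays, with 6.29 and 6.57 in KO and 7.47 and 7.76 in WT on chip 1, and 8.15 and 7.86 in KO and 8.92 and 9.90 in WT on chip 2. It fell by 1.30 on the log2 scale (SE 0.22, limma adjusted p = 0.0229); it was named after its values were seen and is not counted among the 3.

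Grm8, a presynaptic glutamate autoreceptor coupled to inhibitory G proteins, had the smallest p of the receptors. Its log2 intensity was 5.36 and 5.14 in KO and 6.83 and 6.83 in WT on chip 1, and 6.09 and 7.29 in KO and 9.04 and 8.78 in WT on chip 2. Every WT array detected it, and of the KO arrays only the 2 of chip 2 did. The fitted difference was −1.90 (SE 0.26, limma adjusted p = 0.00898), which averages in the signals of the chip 1 KO arrays that did not detect it. On chip 2 alone the difference was −2.22. On chip 1 Grm8 was at least 2.53-fold lower in KO, computed against the lowest detected signal of each KO array or the probe's own signal where that was higher. The other Grm8 probe, ILMN_1220385, was detected only on WT replicate 3, at 6.39. On the rest of chip 2 it read 4.98 and 5.53 in KO and 5.37 in WT, so the genotypes overlapped there. Grm5, which couples to phospholipase C and is the metabotropic receptor common in progenitors and young neurons, was tested on chip 2 alone and was not detected in KO there. Its KO arrays read 5.09 and 4.88 and its WT arrays 6.63 and 6.33, at least 1.57-fold lower in KO. Grm5 passed the detection filter only through its WT arrays, so these values are a description with no test.

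**Figure D3:**
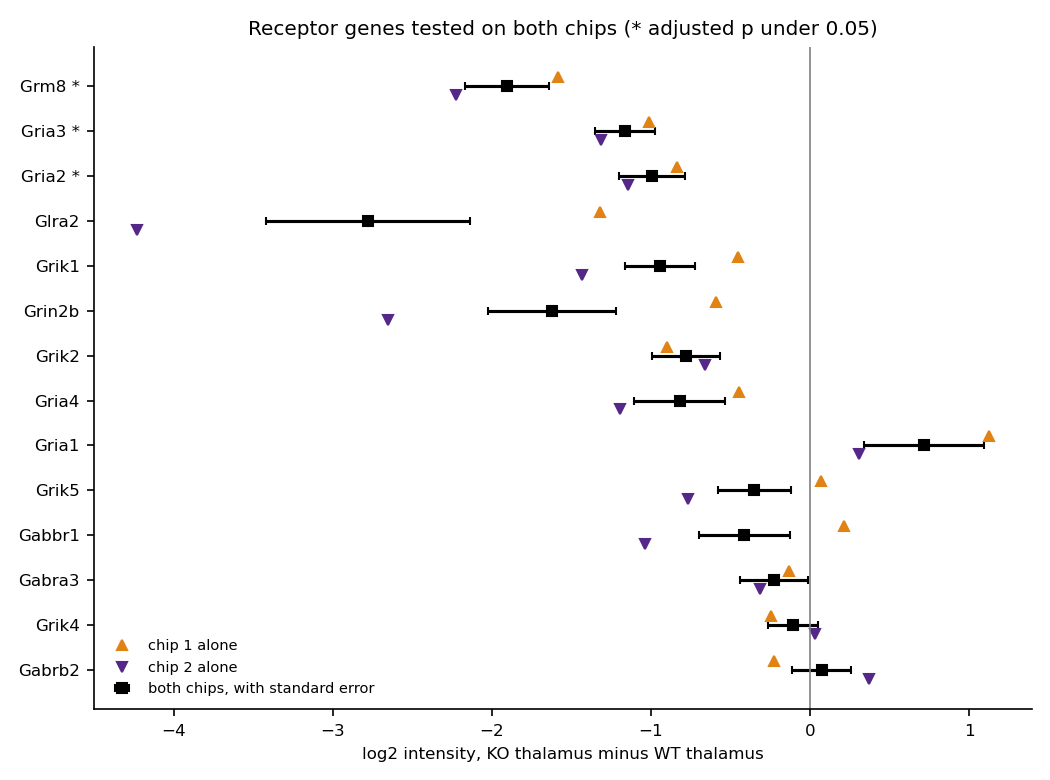
Log2 intensity in KO thalamus minus WT thalamus (x axis) for 14 of the 17 receptor genes tested on both chips, ordered by p. Squares with bars give the joint value and its standard error, upward triangles chip 1, downward triangles chip 2 and asterisks an adjusted p under 0.05; Grin2b and Glra2 lie much farther to the left on chip 2 than on chip 1.

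Glra2 encodes the embryonic alpha subunit of the glycine receptor, which can form channels without Glrb. Its intensities on chip 1 were 4.98 and 4.86 in KO and 6.49 and 6.0 in WT. On chip 2 they were 5.78 and 7.47 in KO and 11.79 and 9.92 in WT. All 4 WT arrays detected it but only 1 of 4 KO arrays did, and no KO array reached a WT array of its chip. The joint difference of −2.78 did not pass (SE 0.64, limma adjusted p = 0.0537), and it averages in the signals of the 3 KO arrays that did not detect the gene. It was at least 1.69-fold lower in KO on chip 1, where no KO array detected it. Glra3, a further alpha subunit, was tested only on chip 2, where KO read 5.26 and 4.91 without detection and WT 6.94 and 6.14, at least 1.64-fold lower in KO. It too passed the filter only through its WT arrays and is described with no test.

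No GABA-A receptor gene passed in either fit, and 3 of the 5 tested on both chips had negative values. Gabra3, an alpha subunit typical of immature neurons, read 5.64 and 5.60 in KO and 5.68 and 5.84 in WT on chip 1, and 7.09 and 7.16 in KO and 7.95 and 6.93 in WT on chip 2. The genotypes overlapped on chip 2, and the difference was −0.22 (SE 0.21, limma adjusted p = 0.585). Gabrb2, a beta subunit that becomes abundant in the adult thalamus, read 5.07 and 5.43 in KO and 5.52 and 5.42 in WT on chip 1, and 7.04 and 6.63 in KO and 6.46 and 6.47 in WT on chip 2. Its chips differed in direction, and the joint value was 0.07 (SE 0.19, limma adjusted p = 0.857). It was detected on 2 of 4 KO arrays and 3 of 4 WT arrays.

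GABA-B receptors are obligate dimers of Gabbr1, which binds GABA, and Gabbr2, which couples to the G protein. Gabbr1 read 6.59 and 6.46 in KO and 6.04 and 6.59 in WT on chip 1, and 8.37 and 8.93 in KO and 9.93 and 9.44 in WT on chip 2. Its values on the chips ran in opposite directions, 0.21 and −1.04, and the joint −0.41 did not pass (SE 0.28, limma adjusted p = 0.441). Gabbr2 was detected on 1 array.

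Chip 2 alone measured 39 receptor probes of 23 genes above the detection filter. Grin2b was the 1 receptor probe called lower and 0 were called higher, where 0.426% and 0.0983% of the 21369 chip 2 probes tested were called. With 2 arrays per genotype, 18 of the 39 probes were lower at an unadjusted p under 0.05 and 0 higher, beside 8.74% and 9.37% of all probes. Both KO arrays lay below both WT arrays for 22 receptor probes and above them for 2, beside 26.2% and 25.2% of all probes. The median over the receptor probes was −0.66, against −0.02 over all probes tested. Of the 39, 3 were detected on no KO array and passed the filter only through WT arrays, so these counts and the median are descriptions. Several of these probes read the same gene and are not independent.

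The repeat probes bore on the AMPA and kainate results. The other tested Gria2 probes gave −1.49 (SE 0.32) and −0.98 (SE 0.29) on chip 2, beside −1.15 for the probe shown above. Gria3 had a second tested probe that gave −0.00 (SE 0.31): ILMN_2638066 read 6.26 and 5.80 in KO and 5.93 and 6.14 in WT, against a clear separation at ILMN_1251634. On chip 2 this second probe was detected on only 1 KO array and on both WT arrays. The lowest detected signals of those arrays were 5.76 to 5.87, which left it little room to show a drop. A second Grik1 probe gave −0.75 (SE 0.30), and a second Grik2 probe gave 0.01 (SE 0.31) beside −0.66 at the brighter one. That second Grik2 probe was also dim, at 6.03 and 6.54 in KO and 6.39 and 6.15 in WT. All 4 tested Gria1 probes gave positive values, from 0.01 to 0.52.

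**Figure D4:**
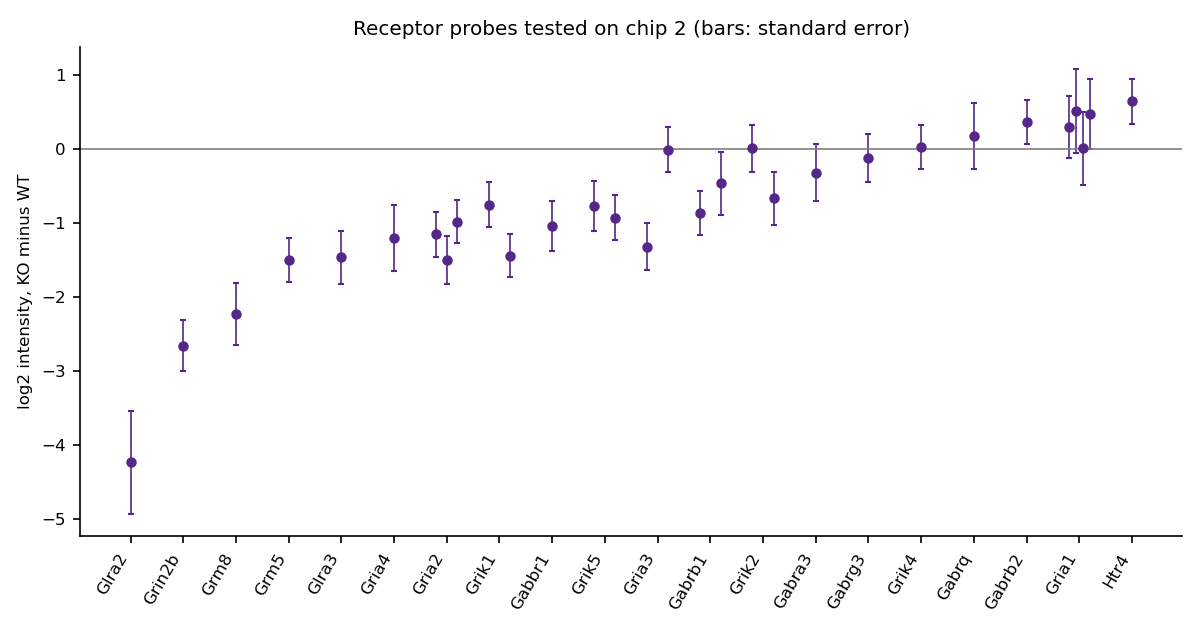
Log2 intensity in KO thalamus minus WT thalamus on chip 2 (y axis) for 30 of the 39 receptor probes tested there, grouped by gene and ordered by the gene's median, with standard errors as bars. Probes of Gria2 lie close together, whereas those of Gria3 and Grik2 differ within the gene, the probe nearer to no difference being dim in each.

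Further members were seen only on chip 2. Htr4, a serotonin receptor that raises cyclic AMP, read 6.68 and 6.52 in KO and 6.14 and 5.76 in WT. It was the receptor probe with the most positive value, 0.65 (SE 0.30, limma adjusted p = 0.306), and did not pass. The GABA-A subunit genes Gabrb1, Gabrg3 and Gabrq gave −0.86 (SE 0.30) at the first's brighter probe, −0.12 (SE 0.32) and 0.18 (SE 0.45).

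The calls rest on few arrays. Leaving out KO replicate 1, KO replicate 2, WT replicate 2 or WT replicate 4 left 1 receptor called, Grm8, where 0.474% to 0.73% of all genes were called lower. Without KO replicate 3, KO replicate 4 or WT replicate 3, 2 were called, Gria3 and Grm8, beside 0.855% to 0.909% of all genes. Without WT replicate 1, 6 were called lower: Glra2, Gria2, Gria3, Grik1, Grin2b and Grm8. The share of all genes called lower was then 2.77%, against 1.48% with every array. On chip 2 alone, Grin2b lost its call without KO replicate 3, as did every other probe, and leaving out WT replicate 3 or WT replicate 4 gave 4 and 3 probes called lower, beside 1.13% and 0.386% of all probes. The arrays of replicate 5 ran the other way: KO replicate 5 was below WT replicate 5 for 2 of the 17 genes, Glra2 and Gabra3. On these arrays Grm8 read 8.25 in KO and 5.67 in WT, Gria3 8.89 in KO and 7.54 in WT, and Gria2 10.35 in KO and 9.31 in WT. The Gbx2 probe read 13.69 in KO replicate 5 and 15.18 in WT replicate 5, the same direction as in the other replicates. Since the place of that probe relative to the deletion is not known, whether the labels of these arrays are right cannot be told from the values. Over both chips, a limma fit that included this pair called 0 receptors, with 1 lower and 1 higher at an unadjusted p under 0.05.

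Several marker lists moved with the genotype beside these receptors. Over all genes tested, limma called 1.48% lower and 1.39% higher. At an unadjusted p under 0.05 it gave 10.8% lower and 10.1% higher. Of the caudal thalamus list (11 of 12 tested), 4 genes were lower and 1 higher. The lower genes include Gbx2 itself, the gene knocked out. The mean level of the list, Gbx2 included, was −1.34 to −0.60 on KO arrays and −0.13 to 0.13 on WT arrays, relative to the chip's WT mean. Of 14 habenula genes, 8 were tested, 2 were higher and 0 lower, with mean levels of 0.39 to 1.08 on KO arrays and −0.26 to 0.26 on WT arrays. Of 10 rostral thalamus and zona limitans genes, 6 were tested and limma called 0, with 2 lower and 0 higher at an unadjusted p under 0.05, and mean levels of −2.71 to −0.68 on KO arrays and −1.67 to 1.67 on WT arrays. Of 14 proliferation genes, 11 were tested, all 11 were positive and 4 were called higher, with mean levels of 0.71 to 1.66 on KO arrays and −0.53 to 0.53 on WT arrays. Of 12 pan-neuronal genes, 9 were tested, 1 was called higher and 0 lower, yet 7 of the 9 were negative, with a median of −0.22. At an unadjusted p under 0.05 limma gave 2 higher and 2 lower. Mean levels of this list were −0.33 to 0.21 on KO arrays and −0.08 to 0.08 on WT arrays. No gene of the endothelium (7 tested), microglia (3 tested) or erythroid (3 tested) lists was called by limma, and 0 had an unadjusted p under 0.05, and of the meninges list none passed the detection filter. The part of these cell populations in the receptor values was not tested.

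The genes that make, load and clear the transmitters were read from lists chosen with earlier results of these data known. Of 16 genes for transmitter synthesis and vesicle loading, 8 were tested, 2 were lower and 0 higher, with a median of −0.86 on the log2 scale. For this list and those that follow, the background is all genes tested. There limma called 1.48% lower and 1.39% higher, and the median was −0.02. Slc18a2, the vesicular monoamine transporter with which thalamic axons transiently store borrowed serotonin, read 6.21 and 6.17 in KO and 8.79 and 7.55 in WT on chip 1, and 7.15 and 7.02 in KO and 11.03 and 9.07 in WT on chip 2. It fell by 2.47 (SE 0.43, limma adjusted p = 0.0229), and the genotypes stood apart on both chips. Abat, which breaks GABA down, fell by 0.68 (SE 0.14, limma adjusted p = 0.0416). Slc17a6, the vesicular glutamate transporter of thalamic relay neurons, differed by −0.19 (SE 0.15, limma adjusted p = 0.505).

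Of 12 genes for transmitter uptake and chloride transport, 5 were tested, 2 were lower and 0 higher, with a median of −1.10. Slc1a3, a glutamate transporter of radial glia and astrocytes that the neural progenitor list holds too, fell by 1.15 (SE 0.24, limma adjusted p = 0.0391). The chloride importer Slc12a2, which keeps GABA depolarising in young neurons, differed by −0.28 (SE 0.19).

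Auxiliary subunits moved both ways. Of 20 listed, 9 were tested, 1 was higher and 1 lower, with a median of −0.30. Neto2, an auxiliary subunit of kainate receptors, fell by 0.94 (SE 0.21, limma adjusted p = 0.0480). Kctd16, which binds GABA-B receptors, rose by 0.94 (SE 0.17, limma adjusted p = 0.0258) but was detected on 0 of the WT arrays of chip 1. Of 28 scaffold and trafficking genes, 17 were tested and limma called 0 in either direction, with a median of −0.39. At an unadjusted p under 0.05, 5 were lower and 0 higher, beside 10.8% and 10.1% of all genes tested. Of the 17 tested, Nlgn1, a postsynaptic adhesion protein of excitatory synapses, differed by −1.15 (SE 0.32, limma adjusted p = 0.0936). Gphn, which anchors glycine and GABA-A receptors, differed by −0.24 (SE 0.15, limma adjusted p = 0.398).

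The epithalamus and prethalamus arrays, which flank the thalamus, were set against the WT thalamus arrays of chip 1, a difference of 1 or more on the log2 scale from each of them counting as higher or lower. There is no test with 1 array per region, and these WT arrays also enter the KO comparison. On the epithalamus array 20 receptor genes could be compared, 2 were higher (background 0.948% of 9814 genes) and 1 was lower (background 0.693%). On the prethalamus array 20 were compared, 4 were higher (background 1.18% of 9987 genes) and 1 was lower (background 0.951%). The caudal thalamus list stood at −1.87 on the epithalamus array and −2.08 on the prethalamus array, relative to WT thalamus. The list of prethalamus and GABAergic neurons stood at 5.0 on the prethalamus array and 2.32 on the epithalamus array, and the habenula list at 0.08 on the epithalamus array, so the habenula markers as a list were not above WT thalamus there. The lists of pretectum and midbrain (4 of 10 tested) and of rostral thalamus and zona limitans (6 of 10 tested) stood at 2.30 and 1.69 on the epithalamus array. Their part in the receptor values of that array was not tested.

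Gria3 was higher on both region arrays, with 8.04 in epithalamus and 7.91 in prethalamus against 6.33 and 6.79 in WT thalamus. In prethalamus Gria1 read 9.43, against 6.49 and 8.08 in WT thalamus, and Grm5 read 6.66, against 5.34 and 5.63. Grik1 was lower in epithalamus, at 5.49 against 6.85 and 6.72 in WT thalamus. Grm8 was detected in epithalamus at 6.49, close to the 6.83 of both WT thalamus arrays, but not in prethalamus, where 5.28 made it at least 2.81-fold lower. For Gria2 the regions read 9.53 and 9.92, between the WT thalamus arrays at 9.21 and 9.96. Glra2 read 5.48 in epithalamus and 5.95 in prethalamus, against 6.49 and 6.0 in WT thalamus, and did not reach the set difference from both WT arrays. Grin2b read 6.18 in epithalamus and 7.42 in prethalamus, beside 6.64 and 7.42 in WT thalamus.

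**Figure D5:**
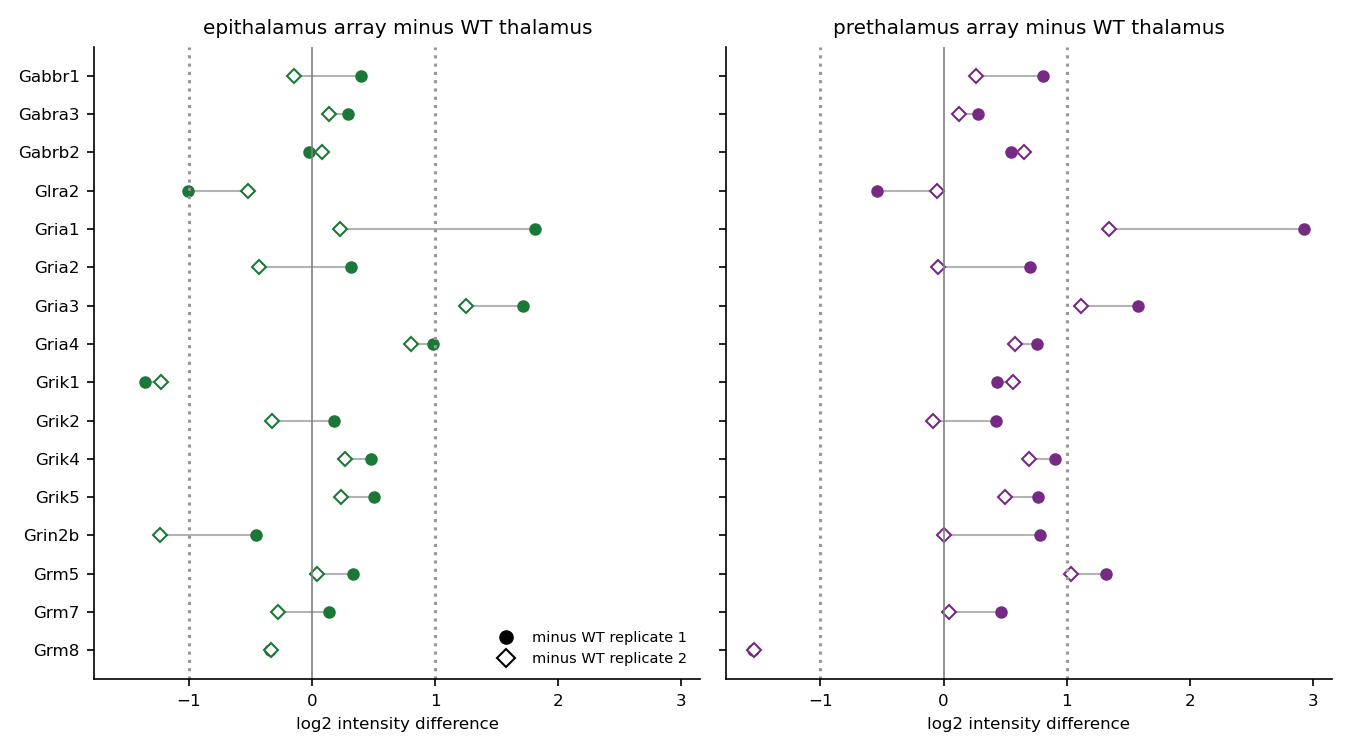
Log2 intensity on the epithalamus array (left) and the prethalamus array (right) minus each WT thalamus array of chip 1 (x axis) for 16 of the receptor genes compared, with filled circles for WT replicate 1, open diamonds for WT replicate 2 and dotted lines at differences of −1 and 1. Gria3 lies beyond the right-hand line on both arrays, Grik1 beyond the left-hand line in epithalamus and Grm8 beyond it in prethalamus.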

How the data were processed

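The authors deposited unnormalized bead intensity tables, per the file headers exported from GenomeStudio without normalization, with a detection fraction per probe and array that lies near 1 for bright probes and was read as 1 minus the detection p. The deposited normalized tables hold log2 values, made in a way not given in the sources used here; BeadStudio, GenomeStudio and lumi appear in the submitters' processing notes. Of 31459 probes deposited as shared by the chips, 31448 were matched on both and used, standing for 23399 genes. Names were updated through the GRCm38.p6 RefSeq gene table by accession, symbol or synonym, and 6817 kept the file's name.

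Each chip was background-corrected and quantile-normalised by limma's neqc (version 3.58.1, R 4.3.3), with normexp by detection p, an offset of 16 and log2. Genes with a probe detected on at least 4 of 8 arrays were tested with limma's lmFit and eBayes, two-sided, with chip as a block and Benjamini-Hochberg adjustment over all genes. A gene is its brightest probe by mean over the 8 arrays. Chip 2 was also tested alone, for every probe detected on at least 2 of 4 arrays. On simulated data the both-chip fit recovered 76 of 100 genes changed 2-fold and 100 of 100 changed 4-fold, with 5 false calls over 10396 genes; the chip 2 fit over 21369 probes recovered 8 and 95 of 100, with 8 false calls. The number of arrays limits the precision.

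The members and lists were chosen with earlier results of these data known. All 17 receptor genes tested on both chips and all 39 probes tested on chip 2 entered the alternatives, which were background correction and offset, filter, the deposited log2 values, blocks, each array left out and replicate 5 included. Genes were named in the text where a receptor passed a test or had the smallest p or brightest probe of its family. Some genes are counted but not reported here by name.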

Additional observations from a re-analysis of the deposited data

Results flagged for a closer look

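Over the 4 KO thalamus arrays or the 4 WT thalamus arrays of each of the 17 receptor genes tested on both chips, 34 groups were examined for 1 array far from the rest, after centring each chip, and chance alone marks about 1 in 20 such groups. In Grik5, KO replicate 3 stood apart at −0.76 relative to its chip. In Grik4, KO replicate 4 stood apart at 0.17 relative to its chip.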

How the results depend on the processing

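Among the receptors tested on both chips, Grm8 stayed past the threshold in 14 of 18 alternatives, Gria3 in 10 of 19 and Gria2 in 7 of 19, with values of −2.22 to −1.0, −1.31 to −0.65 and −1.17 to −0.58. The main count of 3 lower, where 1.48% of all genes were lower, became 6 with the deposited log2 values, beside 2.87% of all genes. It became 0 without the chip block or on chip 1 alone, where 0 of all genes were called. With replicate 5 included it was also 0, beside 0.0863% of all genes. On chip 2 alone it became 2 (Glra2 and Grin2b, with none of Grm8, Gria3 and Gria2), beside 0.74% of all genes. With 1 array left out in turn it was 1 to 6, with the shares given above. The count of 0 higher stayed at 0 under every alternative run. In the fit of every chip 2 probe, the 1 lower probe became 0 without a detection filter, where 0 of all probes were called. It became 0 with replicate 5, beside 0.00951% of all probes, and 2 with an offset of 50, beside 0.566%. Samples with the same replicate number did not clearly deviate together (Pearson r across genes −0.11 on chip 1 and 0.12 on chip 2). With 2 arrays per genotype on each chip, and no pairing stated in the labels, this cannot settle if the numbers pair the samples. With the replicate block 3 receptor genes were lower on both chips (1.78% of all genes). On chip 2 that block gave 12 receptor probes lower (5.04% of all probes, against 0.426% in the main setting). On the epithalamus array the 2 higher became 1 with an offset of 50 and 0 without background correction or with the deposited log2 values, and the 1 lower became 0 under each of these and 2 with either WT array left out. On the prethalamus array the 4 higher became 1 under each of these and the 1 lower became 0 without background correction. The cause of these changes was not tested, apart from the loss of arrays. Dim probes near background limit what the region differences can show, and no result reversed its direction once called.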

Other observations

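RefSeq promoter windows of 300 bases, from 250 before to 50 after a gene start, were searched on both strands for TAATTA, a core motif of homeodomain proteins. Of 55 windows of 46 receptor genes, 2 held it, 3.64%, against 5.29% of all 32851 windows. Those 2 belong to Gabrg1 and Htr2a, neither of which was detected on any array. Some receptor genes had no window, Gria3, Grin2b, Grik1 and Gria1 among them, so their promoters were not searched. The windows of Gria2 and Grm8 did not hold the motif.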
